A study of Mus musculus with 4 samples.

Results

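The TIF1 (transcriptional intermediary factor 1) family comprises 4 of the 16403 genes listed over the RNA sequencing libraries of mouse peritoneal macrophages: Trim24, Trim28, Trim33 and Trim66. Members were taken by symbol and gene identifier. The 4 libraries held 1 sample each of untreated wild-type, IL-4-stimulated wild-type, untreated Trim24-deficient and IL-4-stimulated Trim24-deficient macrophages, all on the C57BL/6 background. Cells were recruited into the peritoneal cavity with 4% thioglycolate over at least 4 days, left to adhere for 4 h and incubated overnight. They were then starved overnight in 0.5% fetal bovine serum and, where stimulated, given 20 ng/mL IL-4 for 6 h. The deficient genotype is labelled TIF1a-/- and joins a floxed Trim24 allele to LysM-Cre, which is expressed from the Lyz2 gene in myeloid cells, so cells of the lavage outside the myeloid lineage keep the gene. Whether the wild-type mice carried the floxed allele or Cre, and which exon was deleted, is not given in the sources used here. Samples had no replicate, so each p-value below compares the reads of given libraries and not the conditions.

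TIF1 proteins are nuclear regulators built on a shared plan. The amino end holds B-boxes, a coiled coil and, in most members, a RING finger. The carboxyl end holds a PHD finger next to a bromodomain. TRIM24 (TIF1-alpha) is a coregulator of nuclear receptors such as the retinoic acid receptors and an E3 ubiquitin ligase for p53. TRIM28 (TIF1-beta or KAP1) is recruited by KRAB zinc finger proteins and brings in SETDB1 and HP1 to silence retroelements. TRIM33 (TIF1-gamma) binds SMAD proteins in TGF-beta signalling and regulates PU.1-bound enhancers in macrophages, and TRIM66 (TIF1-delta) is expressed mainly in the testis. TRIM24, TRIM28 and TRIM33 can occur in common complexes, so the comparison asks whether the paralogs changed where Trim24 was deleted and with IL-4, the cytokine that drives alternative (M2) polarization through Stat6.

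In the GRCm38 assembly, Trim24 (gene 21848) lies on the plus strand at chr6:37870811-37968445 with 19 exons in its annotated transcripts. Trim28 (21849) is a compact gene of 17 exons on the plus strand at chr7:13024152-13031032, where it overlaps the unlisted gene Gm31649. Trim33 (94093) has 20 exons in its longer transcript and lies on the plus strand at chr3:103279293-103358770, and Trim66 (330627) lies on the minus strand at chr7:109449001-109516759. The longest stretch of identical bases between transcripts of any pair of members was 17 bases, between Trim24 and Trim33, and none of the 50-base words of the 4 annotated transcripts occurred in another gene. Reads of the paralogs could therefore be told from those of Trim24 over these transcripts. The Trim24 model behind the deposited lengths (about 6051 bases) is longer than the transcript searched (4042 bases), and its remaining part was not checked.

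The promoter windows of 3 members are shown because IL-4 acts through Stat6, whose motif in DNA is TTC and GAA separated by any 4 bases. Each window holds the 250 bases before a transcription start in RefSeq (GRCm38.p6), 5′ to 3′ on the strand of the gene, with CG dinucleotides in capitals.
Trim24, chr6:37870561-37870810: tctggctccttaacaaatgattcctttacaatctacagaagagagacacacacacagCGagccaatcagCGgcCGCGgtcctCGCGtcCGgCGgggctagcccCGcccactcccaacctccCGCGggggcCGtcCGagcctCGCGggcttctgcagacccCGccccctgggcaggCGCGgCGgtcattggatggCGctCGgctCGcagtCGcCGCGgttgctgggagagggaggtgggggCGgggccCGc
Trim28, chr7:13023902-13024151: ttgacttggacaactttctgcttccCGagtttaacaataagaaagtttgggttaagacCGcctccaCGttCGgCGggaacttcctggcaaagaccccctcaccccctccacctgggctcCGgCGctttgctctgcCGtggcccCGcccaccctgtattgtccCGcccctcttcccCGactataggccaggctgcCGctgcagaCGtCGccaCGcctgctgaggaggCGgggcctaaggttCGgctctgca
Trim66, chr7:109508135-109508384: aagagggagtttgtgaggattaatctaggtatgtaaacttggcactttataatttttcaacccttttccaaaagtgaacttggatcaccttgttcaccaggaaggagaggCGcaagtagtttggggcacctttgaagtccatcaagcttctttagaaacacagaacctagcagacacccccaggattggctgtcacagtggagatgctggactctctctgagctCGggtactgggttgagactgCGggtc
The Trim24 window had 27 CG dinucleotides and a GC content of 69.6%, and the Trim28 window had 17 and 62%. The Trim66 window had 3 and 47.2%, against a median of 6 and 52.4% over all windows. The Stat6 motif, the half-sites of which read the same on both strands, was not present in the Trim24 or Trim28 window. The windows reach 250 bases upstream, and sites farther from the start were not searched. In the human TRIM24 promoter, the study reported a conserved Stat6 motif, with STAT6 binding, farther upstream than a window of this length reaches. Absence from the Trim24 window therefore does not bear on that site. The Stat6 motif occurred once in the Trim66 window, as TTCTTTAGAA from base 148, and is found in 5.85% of the 32851 windows. The general STAT motif, TTC and GAA separated by any 3 bases, found in 7.02% of windows, was in none of these 3. A match is a run of letters and not a bound site. A second Trim24 window, at chr6:37900237-37900486, had a single CG dinucleotide and a GC content of 46%.

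Libraries held between 11026033 and 11250099 expected reads each. Of the 8 macrophage markers all were listed, with a summed level of 14906 and 14768.5 FPKM in the untreated and IL-4-stimulated wild-type libraries and of 8955 and 8320 FPKM in the respective knockout libraries, most of it from Lyz2 (11289, 10811, 5193 and 4761 FPKM). LysM-Cre is expressed from Lyz2, and whether the driver allele lowered Lyz2 in the knockout was not tested. The sum is therefore not a measure of macrophage content. Cd68, the next highest of these markers, was at 3240, 3465, 3378 and 3005 FPKM in the same order. Adgre1, which encodes F4/80, was at 68.5, 91.8, 72.6 and 97.7 FPKM. The IL-4-stimulated wild-type library stood apart in its relation to transcript length. Its FPKM values fell below the mean of the 4 libraries with rising length, by 0.36 on the log2 scale at the length of Trim33, where the curves of the others were between 0.05 and 0.18. Ratios of a member between this library and another are therefore given as deposited and with the length trend removed, and so are the counts of the gene lists. Single genes of those lists are given as deposited, with the corrected value where the call differs or where it is stated.

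Trim28 was the most abundant member, Trim33 the next and Trim24 the third, while Trim66 was near the limit of detection. FPKM is scaled by transcript length, so levels of different genes can be set side by side. Levels within the IL-4-stimulated wild-type library still carry its length trend. Its curve deviated by -0.36 at the length of Trim33, -0.22 at that of Trim24 and -0.02 at that of Trim28 (log2 scale). Ratios between members and shares of the family in this library are given as deposited only. Trim28 was at 28.4 FPKM in untreated wild-type, 26.3 in IL-4-stimulated wild-type, 25.5 in untreated knockout and 25.4 in IL-4-stimulated knockout macrophages, from 1028, 971, 922 and 917 reads. The exact 95% counting intervals of these levels were 26.7 to 30.2, 24.7 to 28.0, 23.9 to 27.2 and 23.8 to 27.1 FPKM, and all of them overlapped. Trim28 provided 78.0% to 82.1% of the summed FPKM of the family.

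Trim33 was at 5.45, 4.29, 5.47 and 5.85 FPKM in the same order, from 540, 433, 541 and 578 reads. The IL-4-stimulated wild-type library was the low one, with an interval of 3.90 to 4.71 FPKM that did not reach those of the other libraries (5.0 to 5.93, 5.02 to 5.95 and 5.38 to 6.35). The level of Trim28 was 5.21 times that of Trim33 in untreated wild-type macrophages (95% interval 4.69 to 5.80), 6.14 times with IL-4 (5.47 to 6.89), 4.67 times in the untreated knockout (4.19 to 5.20) and 4.34 times in the knockout with IL-4 (3.91 to 4.82). These neighbours in the order differed beyond counting error in each library.

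Trim24 was at 2.55 FPKM (2.19 to 2.96) in untreated and 1.48 FPKM (1.21 to 1.79) in IL-4-stimulated wild-type macrophages, from 175 and 103 reads. Its level was exceeded 2.14-fold (1.80 to 2.55) by Trim33 in the untreated and 2.90-fold (2.33 to 3.63) in the IL-4-stimulated wild-type library. In wild-type macrophages Trim24 thus made up 7.0% and 4.61% of the FPKM of the family, and its level exceeded that of 45% and 40.0% of the genes in the table.

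Trim66 was listed at 0.01, 0.02, 0.02 and 0.02 FPKM, from 1, 2, 2 and 2 reads. All 4 values lie at or under a floor of 3 reads, so no fold change is given, and differences in Trim66 were not detectable at this depth. In the untreated knockout, the levels of Trim24 and Trim66 did not differ beyond counting error, with a ratio of 3 and an interval of 0.430 to 33.2.

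**Figure D1:**
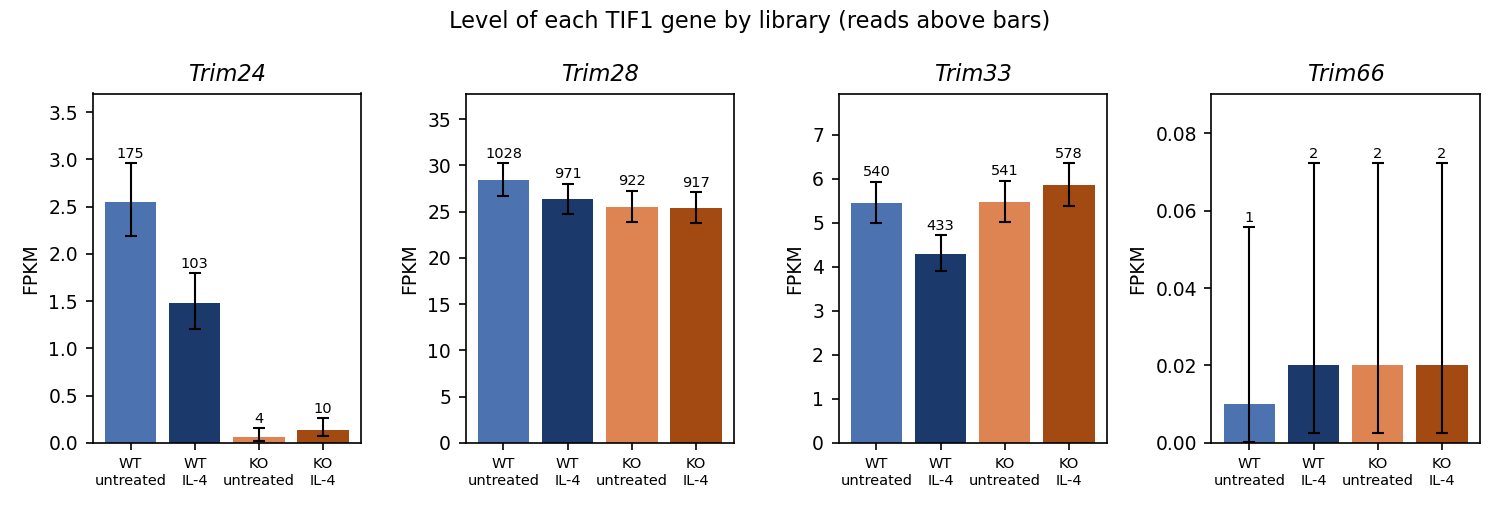
Level (FPKM, vertical axes with separate scales from 0) of each TIF1 gene in the 4 libraries, with reads printed above the bars and exact 95% Poisson counting intervals as error bars (WT, wild-type; KO, Trim24-deficient). Trim24 drops from 2.55 and 1.48 FPKM to 0.06 and 0.14 FPKM, Trim28 stays between 25.4 and 28.4 FPKM, and Trim33 is lowest, at 4.29 FPKM, in the IL-4-stimulated wild-type library.

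Deletion of Trim24 was seen in both knockout libraries. Trim24 had 4 reads (0.06 FPKM, interval 0.0163 to 0.154) in the untreated and 10 reads (0.14 FPKM, 0.0671 to 0.257) in the IL-4-stimulated knockout, against 175 and 103 reads in the wild-type libraries. Its share of reads in the knockout was 0.0229 of the wild-type share without IL-4 (0.00616 to 0.0596) and 0.0991 with IL-4 (0.0461 to 0.190). On the log2(FPKM + 0.1) scale used for calls, the ratios were -4.05 (two-sided Fisher's exact test on the reads, Benjamini-Hochberg adjusted over all genes, p = 4.4e-44) and -2.72 (adjusted p = 9.9e-19). With the length trend removed they were -4.07 and -2.98, and both calls held. Trim24 was among 23 genes called lower in both genotype pairs, and ranked 5 by the log2 ratio among the genes called lower without IL-4 and 13 with it. In these bulk samples, fewer cells that retain the gene and less RNA per cell cannot be told apart.

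Markers of other cell types were listed at far lower levels than those of macrophages. The summed level of the T cell markers was 0.86 to 1.72 FPKM, of the B cell markers 4.08 to 6.52 FPKM and of the NK cell markers at most 0.21 FPKM. Mast cell markers were at 1.45 and 0.97 FPKM in wild-type libraries and at 2.86 and 2.59 FPKM in those of the knockout, mesothelial markers at 1.52 to 2.73 FPKM, and fibroblast markers at 35.3, 29.2, 17.8 and 30.3 FPKM. Of 3 eosinophil markers, 2 were listed (1.06 to 2.04 FPKM in sum) and Epx, which defines the lineage, was at 0. Of 5 neutrophil markers, only S100a8 was listed (5.15 to 8.76 FPKM). The part of these cells in the remaining Trim24 reads was not tested.

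No paralog was called where Trim24 was deleted. A gene was called where the adjusted p was below 0.05 and the fold above 1.5. Of the members, 1 was called in the untreated genotype pair and 1 with IL-4, in each case Trim24 itself, against 1.58% and 3.81% of all genes tested (1.57% and 2.03% with the length trend removed). In untreated macrophages the read share of Trim33 in the knockout was 1.0 times the wild-type share (0.888 to 1.13), and that of Trim28 was 0.897 times (0.820 to 0.982, adjusted p = 0.16 by Fisher's exact test). Both intervals exclude a change of 1.5-fold in either direction from counting error alone. The 3 paralogs summed to 33.9 FPKM in untreated wild-type and to 31.0 FPKM in untreated knockout macrophages.

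With IL-4, Trim33 had 5.85 FPKM in the knockout against 4.29 in the wild-type, a read share 1.36 times as high (1.20 to 1.55), which passed the p threshold (adjusted p = 1.5e-05 by Fisher's exact test) but not the fold threshold. The 203 genes within 10% of the length of Trim33 had a median log2 ratio of 0.41 in this pair, next to 0.44 for Trim33. With the length trend removed, the read share of Trim33 was 1.02 times that of the wild-type (0.902 to 1.16) and its log2 ratio 0.03 (adjusted p = 0.95 by an exact binomial test). Trim28, whose transcript is shorter (3255 bases against about 8849), had a read share of 0.964 times the wild-type (0.879 to 1.06, adjusted p = 0.72), and 0.943 times with the trend removed (0.861 to 1.03, adjusted p = 0.56). The 1301 genes near its length had a median log2 ratio of 0.03. With IL-4 the paralogs summed to 30.6 FPKM for wild-type and 31.3 FPKM for knockout cells.

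**Figure D2:**
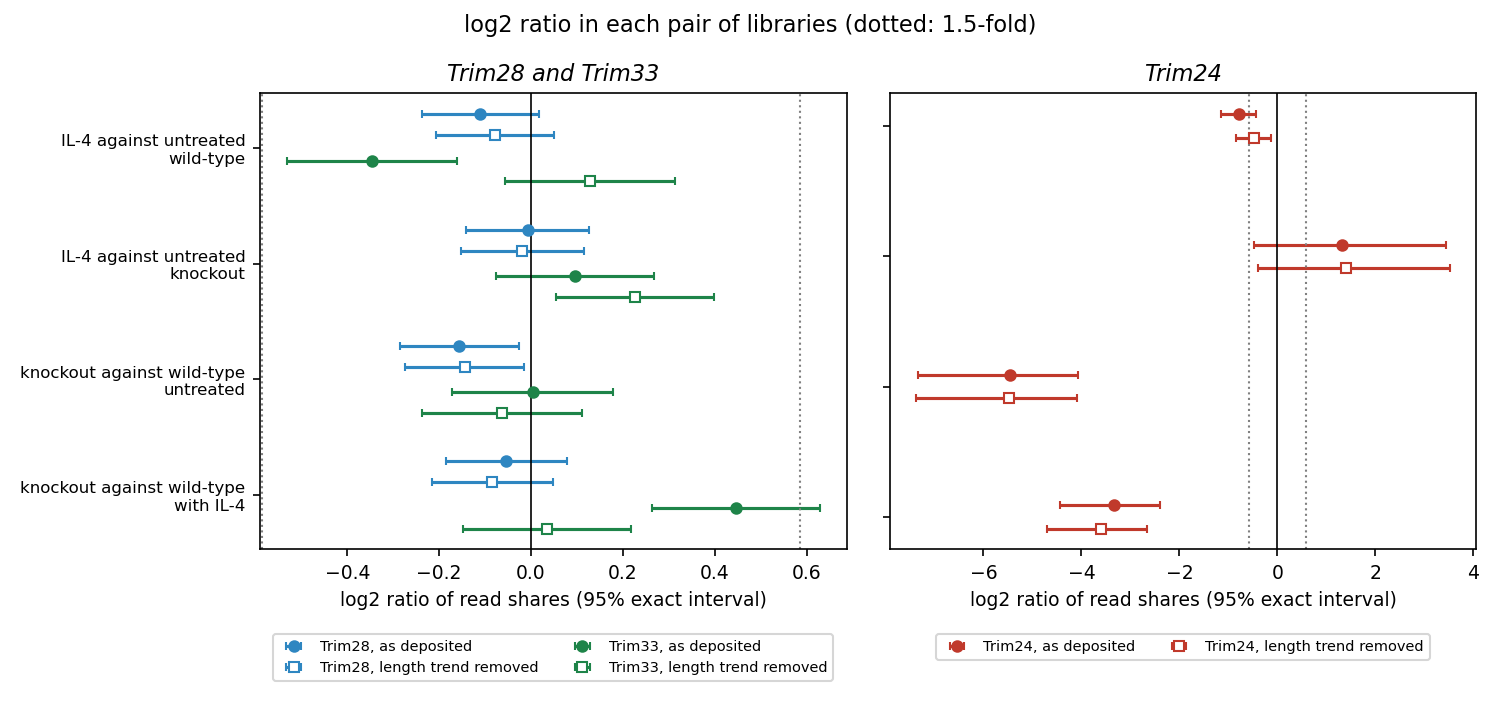
log2 ratio of read shares (horizontal axes) of Trim28 and Trim33 (left) and Trim24 (right) in the 4 pairs of libraries, with exact 95% counting intervals. Filled circles are the deposited reads and open squares the values with the length trend removed, and dotted lines mark 1.5-fold. With IL-4, the Trim33 ratio of knockout to wild-type is 0.45 before and 0.03 after removal, and Trim24 lies far below 0 in both genotype pairs.

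A joint fit over the 4 libraries, in which genotype and IL-4 effects add on the log scale, gave the same genotype calls. In edgeR's quasi-likelihood test, which had 1 residual degree of freedom here, the genotype effect of Trim24 was -4.25 on the log2 scale (adjusted p = 6.3e-06), that of Trim28 -0.10 (adjusted p = 0.68) and that of Trim33 0.22 (adjusted p = 0.41). Of all genes fitted, 1.66% had a genotype effect. Trim66 fell below the count filter of this fit. With the length curve of each library as an offset, the genotype effect of Trim33 was -0.01 (adjusted p = 0.98).

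With IL-4 in wild-type macrophages, Trim24, Trim28 and Trim33 all had lower levels as deposited, and only Trim24 was called. Trim24 went from 2.55 to 1.48 FPKM, a log2 ratio of -0.75 (Fisher's exact test, adjusted p = 4.8e-05), and its read share fell by 0.79 on the log2 scale (interval -1.16 to -0.43). Of the members, 1 was thus called, against 12.8% of all genes. The 586 genes within 10% of the length of Trim24 had a median log2 ratio of -0.29 in this pair. With the length trend removed, the ratio of Trim24 was -0.44 and its adjusted p 0.026 by an exact binomial test, which no longer passed the fold threshold, so that 0 members were called, against 10.4% of genes. The study picked Trim24 out of IL-4-regulated genes, and whether from these libraries is not stated, so the direction of this ratio is not independent evidence. By QPCR and immunoblot, which were not analysed here, the study also reported lower Trim24 with IL-4 in mouse and human macrophages. It reported that this was lost in Stat6-deficient macrophages.

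Trim33 had a log2 ratio of -0.34 with IL-4 in wild-type macrophages (adjusted p = 0.00095 by Fisher's exact test, below the fold threshold), and the 203 genes near its length had a median of -0.43. With the length trend removed, its ratio was 0.14 (interval of the read share -0.06 to 0.31, adjusted p = 0.37), so that the direction turned. Trim28 went from 28.4 to 26.3 FPKM, a log2 ratio of -0.11 as deposited (interval -0.24 to 0.02, adjusted p = 0.21) and of -0.08 with the trend removed.

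In the knockout pair, which does not involve the library that stood apart, no member was called with IL-4, against 9.32% of genes (9.21% with the length trend removed). Trim28 was at 25.5 and 25.4 FPKM, a log2 ratio of -0.01 (-0.14 to 0.13). Trim33 was at 5.47 and 5.85 FPKM, a ratio of 0.10 (-0.08 to 0.27, adjusted p = 0.52), and with the trend removed of 0.23 (0.05 to 0.40, adjusted p = 0.039 by an exact binomial test), below the fold threshold. The remaining Trim24 reads, 4 without and 10 with IL-4, did not differ beyond counting error (interval of the log2 ratio -0.47 to 3.45, adjusted p = 0.30). In the joint edgeR fit, 25.3% of genes had an IL-4 effect, and none of the 3 members fitted was among them, Trim24 included, which was called in the wild-type pair, with effects of -0.58 for Trim24 (adjusted p = 0.14), -0.05 for Trim28 (0.75) and -0.11 for Trim33 (0.53).

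Whether the IL-4 ratio differed between genotypes was tested against counting error for genes averaging 1 FPKM or more, of which 2.87% were called. None of the members was. The ratio of Trim33 was higher in the knockout than in the wild-type by 0.44 on the log2 scale (0.19 to 0.69), which passed the p threshold (adjusted p = 0.0062) but not the fold threshold. With the length curves subtracted the difference was 0.10 (-0.15 to 0.35, adjusted p = 0.78). The difference was 0.10 for Trim28 as deposited (-0.08 to 0.29, adjusted p = 0.56) and 0.06 with the curves subtracted (adjusted p = 0.82). For Trim24 the difference was 2.01, and 1.78 with the curves subtracted, on the 4 and 10 reads of the knockout. Trim24 is the deleted gene. It passed the filter only through its wild-type levels (2.55 and 1.48 FPKM, against 0.06 and 0.14 FPKM in the knockout). Its value therefore cannot show whether the IL-4 ratio differed between genotypes.

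Ratios moved with transcript length over the whole table in the pairs with the IL-4-stimulated wild-type library. Across 10443 genes, which are not independent replicates, Spearman's rho between length and log2 ratio was -0.372 for IL-4 in wild-type, 0.518 for knockout against wild-type with IL-4, -0.109 for IL-4 in the knockout and 0.129 for the untreated genotype pair. In the IL-4 genotype pair, genes in the shortest eighth (up to 1223 bases) had a median log2 ratio of -0.17 and those in the longest eighth (from 5369 bases) of 0.34. Trim33 is in the longest eighth with about 8849 bases, as is Trim24 with about 6051. The cause of the trend was not tested.

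**Figure D3:**
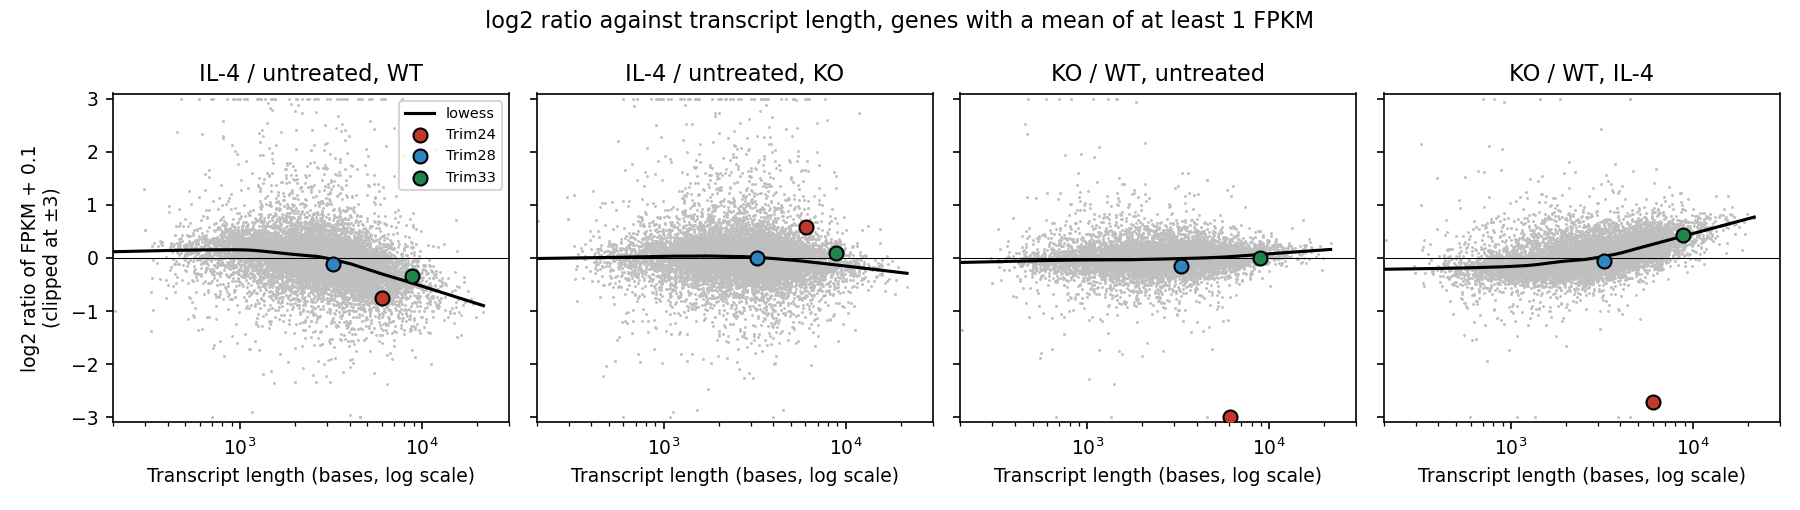
log2 ratio of FPKM + 0.1 (vertical axis, clipped at ±3) against transcript length in bases (horizontal log axis) in the 4 pairs of libraries. Each grey point is a gene averaging 1 FPKM or more, and the line is the smoothed trend. Trim33 sits close to the falling trend of the first panel (-0.34) and the rising trend of the last (0.44), Trim28 near 0 in all, and Trim24 far below the trend in both genotype pairs.

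The other genes of the TRIM family, most of which encode the RING, B-box and coiled-coil part, gave a background for the members. Of 64 such symbols, 51 were listed and 31 averaged 1 FPKM or more. In the untreated genotype pair 1 of 47 tested was called (2.13%, against 1.58% of all genes). With IL-4 2 were called higher and 3 lower of 49 (10.2%, against 3.81%). Of these, 2 and 2 were called with the length trend removed (8.16%, against 2.03% of all genes). Medians of this and the following lists are over members averaging 1 FPKM or more. Here they were 0.06 and 0.08, and over all genes at that level the medians of the 4 pairs lay between -0.01 and 0.01. Trim29, known for roles in the innate response of macrophages, was higher in both genotype pairs, going from 1.56 FPKM (wild-type) to 3.16 FPKM (knockout) without IL-4 and from 0.84 to 2.23 FPKM with it, log2 ratios of 0.97 (adjusted p = 0.0012 by Fisher's exact test) and 1.31 (adjusted p = 0.00011). Both calls held with the length trend removed.

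Trim56, an interferon-inducible ligase, had 4.0 FPKM in untreated and 2.01 FPKM in stimulated wild-type cells, and 4.84 and 3.28 FPKM in the respective knockout cells. It was called higher in the knockout with IL-4 (log2 ratio 0.68, and 0.62 with the trend removed). Trim47 was at 6.48 and 3.84 FPKM against 4.87 and 2.15 FPKM and was called lower in the knockout with IL-4 (-0.81, and -0.76 with the trend removed). Trim13, an endoplasmic reticulum ligase, and Trim2, a neuronal ligase, were also called lower there (-0.64 and -0.84), of which the call of Trim13 was lost with the trend removed and that of Trim2, on 50 and 23 reads, was kept.

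With IL-4, 0 of 49 TRIM genes were called higher and 6 lower in wild-type (5 lower with the length trend removed), and 0 and 2 of 46 in the knockout. These are 12.2% and 4.35% of the tested genes, next to 12.8% and 9.32% of all genes, so the wild-type share is close to the background. The wild-type share with the trend removed was 10.2%, against 10.4% of all genes. Of those averaging 1 FPKM or more, Trim16, linked to the autophagy of damaged lysosomes, had the lowest mean ratio, at 2.28 and 0.70 FPKM in wild-type and 2.54 and 0.76 FPKM in the knockout, log2 ratios of -1.57 (-1.48 with the trend removed) and -1.62. Trim47 (-0.74 and -1.14) and Trim56 (-0.96 and -0.55) were the next, and of these Trim56 was called in wild-type only. Trim36, Trim21, the cytosolic antibody receptor, and Trim27 had the highest mean ratios at that level (0.31, 0.21 and 0.19) and were called in neither pair. Trim25, the ligase that activates RIG-I, is named in the plot of TRIM genes after its values were seen, at 30.3 and 18.3 FPKM in wild-type (-0.73, and -0.46 with the length trend removed, then not called).

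**Figure D4:**
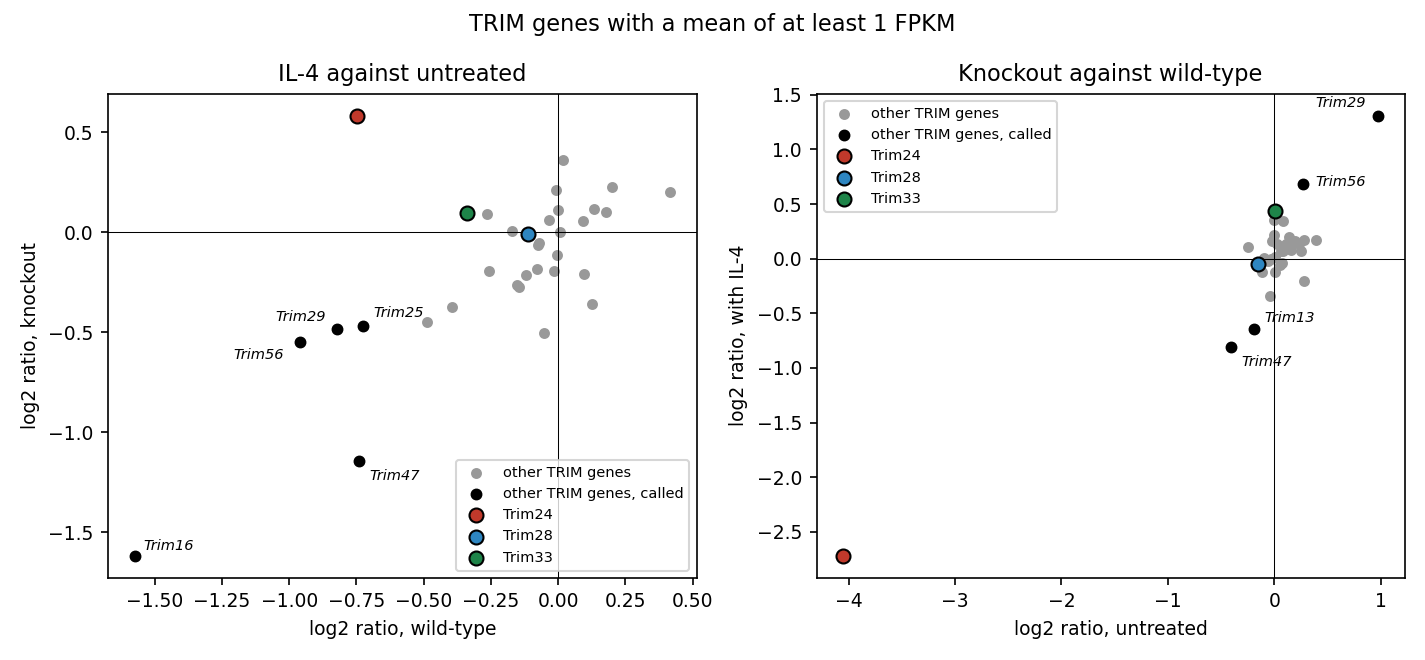
log2 ratio of FPKM + 0.1 of TRIM genes averaging 1 FPKM or more, for IL-4 in wild-type (horizontal) against IL-4 in the knockout (vertical) on the left, and for knockout against wild-type without (horizontal) and with IL-4 (vertical) on the right. Black points were called in either pair of the panel. Trim28 lies near the origin of both panels, Trim33 at 0.44 on the vertical axis of the right panel, and Trim24 at -4.05 and -2.72.

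Genes that work with the members were set out in lists. Of the 33 genes of TRIM28-dependent silencing, such as Setdb1, the HP1 genes and the NuRD subunits, 0 were called in the untreated genotype pair (1.58% of all genes) and 3 were called higher with IL-4 (9.09%, against 3.81% of all genes), with medians of -0.06 and 0.01. Those 3 were Atf7ip, the SETDB1 cofactor (log2 ratio 0.59), Chd3, a NuRD remodeller (0.68), and Zfp809, a KRAB zinc finger protein that recruits TRIM28 to proviral DNA (0.74). With the length trend removed, only Zfp809 remained called (0.83), which is 3.03% of the list against 2.03% of all genes. It was at 4.52 FPKM in wild-type and 7.59 FPKM in knockout cells with IL-4, and at 7.40 and 5.71 FPKM without. Setdb1 was at 15.2, 13.0, 14.2 and 14.5 FPKM and was called in no pair. With IL-4, Dnmt1, the maintenance DNA methyltransferase, had 35.5 and 19.5 FPKM in wild-type and was called lower there (-0.86, and -0.61 with the trend removed), and Chd4 had 96.4 and 153.7 FPKM in the knockout and was called higher (0.67). In wild-type Chd4 had 93.8 and 122.2 FPKM, a ratio of 0.38 as deposited and of 0.71 with the trend removed, where it was called higher too. In wild-type 0 genes of this list were called higher and 3 lower (9.09%, against 12.8% of all genes). With the trend removed these were 1 and 2 (9.09%, against 10.4%). In the knockout 1 was called higher and 0 lower (3.03%, against 9.32%). Cbx3, which encodes an HP1 protein, had IL-4 ratios of 0.45 and 0.44, below the fold threshold.

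In the list of TRIM33 and the SMAD pathway, 25 of 26 genes were listed. In the untreated genotype pair 1 was called (4.0%, against 1.58% of all genes), Bmpr1a, a BMP receptor (1.59 and 0.92 FPKM, log2 ratio -0.73). With IL-4, Bmpr2 (0.66) and Ski (0.63), a repressor of SMADs, were called higher (8.0%, against 3.81% of all genes). Neither of the latter was called with the trend removed, and the median of the list went from 0.21 to 0.03. With IL-4, 0 were called higher and 7 lower in wild-type (28.0% of 25, against 12.8% of all genes), and 2 higher and 4 lower with the trend removed (24.0%, against 10.4%). In the knockout 2 were called lower (8.0%, against 9.32%). Smad3, the TGF-beta-activated SMAD, was at 3.65 and 1.40 FPKM in wild-type and 3.72 and 1.46 FPKM in the knockout (-1.32, or -1.10 with the trend removed, and -1.29). Tgfbr1, the type I TGF-beta receptor, was at 20.9 and 10.7 FPKM and at 20.6 and 12.2 FPKM (-0.96, or -0.68 with the trend removed, and -0.75). These 2 genes were called lower in both genotypes with and without the length correction, whereas Trim33 was not called. Smurf1, a ligase for SMADs, and Inhba, a subunit of activin, had the highest mean IL-4 ratios among genes averaging 1 FPKM or more (0.36 and 0.51, and 0.38 and 0.58) and were not called as deposited. With the trend removed Smurf1 was called higher in wild-type (0.61).

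Of the 22 genes chosen as TRIM24 partners, among them nuclear receptors, p53 and the acetyltransferases, 0 were called in the untreated genotype pair (1.58% of all genes). With IL-4 1 was called (4.55%, against 3.81% of all genes), Mdm4, a p53 inhibitor (log2 ratio 0.64, and 0.31 with the trend removed, then not called). For IL-4 against untreated, 2 were called higher and 2 lower in wild-type (18.2%, against 12.8% of all genes). With the trend removed these were 2 and 0 (9.09%, against 10.4%). In the knockout 4 were called higher (18.2%, against 9.32%), and 3 with the trend removed (13.6%, against 9.21%). Crebbp, which encodes CBP, was at 6.68 and 3.64 FPKM in wild-type and 6.77 and 5.49 FPKM in the knockout. Ep300 was at 20.0 and 12.8 FPKM and at 21.4 and 18.4 FPKM. Both were called lower with IL-4 in wild-type (-0.86 and -0.65) and in neither case with the trend removed (-0.46 and -0.18). Cdkn1a, the p53 target p21, rose with IL-4 in both genotypes (0.92 and 0.90), as did Rarb, a retinoic acid receptor induced by its own ligand (1.13 and 0.75).

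Of 13 listed genes of the retinoic acid response, 4 were called higher with IL-4 in wild-type (of 11 tested, 36.4%, against 12.8% of all genes) and 6 in the knockout (46.2%, against 9.32%). With the trend removed these were 4 in wild-type (36.4%, against 10.4% of all genes) and 5 in the knockout (38.5%, against 9.21%). Dhrs3, a retinal reductase, lost its call in the knockout (0.60 to 0.56). The medians were 0.86 and 0.99 over the 7 genes averaging 1 FPKM or more, a group that includes the genes called. Aldh1a2, which makes retinoic acid, was at 3.92 and 11.8 FPKM in wild-type and at 2.92 and 14.4 FPKM in the knockout (log2 ratios 1.56 and 2.27). Tgm2, a transglutaminase induced by retinoic acid, was at 42.1 and 76.3 FPKM and at 37.2 and 99.2 FPKM (0.86 and 1.41). The study measured its human counterpart as an M2 gene. This list was chosen with earlier results of these data known, and whether the share called reflects retinoic acid was not tested. Between genotypes 0 of 13 were called without IL-4 (1.58% of all genes) and 1 of 12 with it (8.33%, against 3.81% of all genes). The latter count was also 1 with the trend removed (8.33%, against 2.03%). That gene was Cd38, an NAD glycohydrolase, with 1.51 FPKM for wild-type and 3.21 FPKM for knockout cells (1.04). Rdh10 had the lowest mean IL-4 ratio of those 7 (-0.09 and 0.13) and was not called.

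Of 26 interferon response genes, 0 were called between genotypes without IL-4 (1.58% of all genes). With IL-4, 3 were called higher in the knockout (11.5%, against 3.81% of all genes). The medians without and with IL-4 were 0.20 and 0.13 over 22 genes. The 3 genes called were Ifit2 (0.71 and 1.85 FPKM, log2 ratio 1.27), Oasl1 (2.09 and 3.67 FPKM, 0.78) and Mx1 (0.19 and 0.63 FPKM, 1.33). Ifit2 and Oasl1, both of the antiviral response, were still called with the trend removed (7.69%, against 2.03% of all genes), and Mx1 was not. For IL-4 against untreated, 2 were called higher and 1 lower in wild-type (11.5%, against 12.8% of all genes). With the trend removed these were 3 and 1 (15.4%, against 10.4%). In the knockout 1 was called higher and 1 lower (7.69%, against 9.32%). The shares as deposited are thus close to those of all genes. Irf1 rose with IL-4 in both genotypes (1.33 and 0.88) and Oas2 fell in both (-0.75 and -0.93). Gbp2, an interferon-induced GTPase, was called higher in wild-type (0.65) and had a ratio of 0.48 in the knockout, below the fold threshold, and Ifit1 had ratios of -0.27 and -0.50 and was not called.

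The proteins that share the PHD and bromodomain module with the TIF1 family are mostly encoded by long transcripts, with a median of 6312.5 bases. Of 16 such genes, 4 were called higher in the knockout with IL-4 (25%, against 3.81% of all genes) and 0 without it (1.58%): Kmt2a (log2 ratio 0.96), Bptf (0.64), Baz2a (0.64) and Baz2b (0.62), all chromatin regulators. With the trend removed, 0 were called and the median went from 0.36 to 0.09. With IL-4 in wild-type, 6 were called lower as deposited (37.5%, against 12.8% of all genes) and 0 with the trend removed (10.4% of all genes). In the knockout 0 were called with IL-4 (9.32% of all genes). Zmynd11 and Baz1a, with the highest mean IL-4 ratios, were called in no pair.

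**Figure D5:**
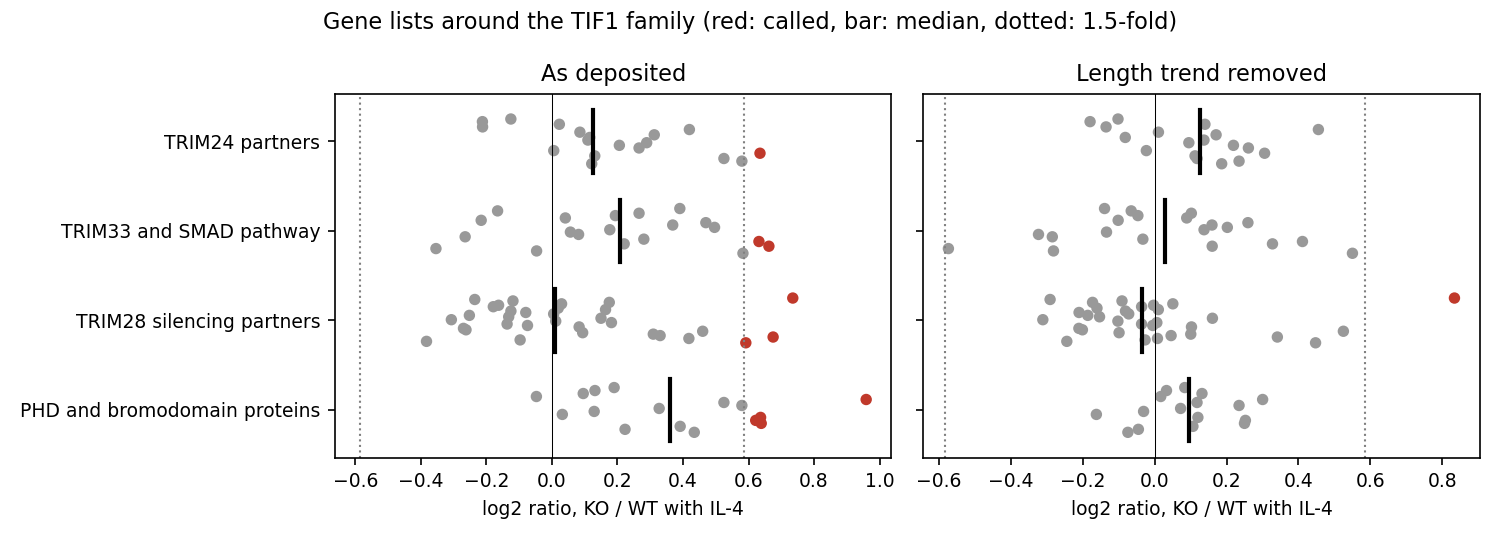
log2 ratio of FPKM + 0.1, knockout against wild-type with IL-4 (horizontal axes), for genes of 4 lists, as deposited on the left and with the length trend removed on the right. Each point is a gene, red points were called, black bars are medians and dotted lines mark 1.5-fold. Of 10 called genes on the left only Zfp809 (0.83) is called on the right, and the median of the PHD and bromodomain list goes from 0.36 to 0.09.

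Genes with profiles most like those of the members over the 4 libraries were named by the Euclidean distance between centred log2(FPKM + 0.1) profiles, searching genes that averaged 5 FPKM or more. For Trim28 they were Rnf145, Phc2 and Dpf2 (distances 0.019, 0.021 and 0.022), and 2813 of 7463 genes lay within 0.25, so the flat profile is common. For Trim33 they were Fbxo11, Kif3b and Rragd (0.027, 0.031 and 0.035), with transcripts of 4013, 5647 and 5047 bases, and 871 genes lay within 0.25. No gene lay within 0.25 of Trim24. The nearest were Tmem254c (1.54), with 29.4 and 30.5 FPKM in both wild-type libraries and 1.15 and 0.97 FPKM in the deficient ones, Snord104 (1.71) and Snord96a (1.80). Tmem254c has near-identical copies between which reads may be split, and the other two are short small nucleolar RNAs, so these levels are uncertain.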

How the data were processed

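RNA from 4 cultures of peritoneal macrophages was sequenced on a HiSeq instrument. The authors aligned reads with Bowtie to the mouse genome (GRCm38/mm10) and quantified genes with RSEM (versions not given in the sources used here). The deposited expected counts are estimated counts and were rounded to whole numbers here, and the FPKM values were computed by the authors with effective transcript lengths and kept to 2 decimals. Genes not listed in a library were taken as 0. Of the 16403 gene identifiers, 16365 matched a symbol. Members and gene lists were chosen with earlier results of these data known. Ratios of pairs of libraries used log2(FPKM + 0.1), which understates changes of low genes. Fisher's exact test (two-sided) compared the reads, with Benjamini-Hochberg adjustment over all genes with a read, and calls needed an adjusted p below 0.05 and a fold above 1.5. These tests, and the intervals (exact 95%, Clopper-Pearson or Poisson), cover counting error only. The length trend was smoothed by lowess (fraction 0.3) over the deviation of each library from the mean, along log2 transcript length (genes from 200 bases and 1 FPKM), and corrected reads were compared by an exact binomial test. edgeR 4.0.16 in R 4.3.3 (TMM, count filter, quasi-likelihood test) fitted genotype and IL-4 together, with 1 residual degree of freedom. The difference of IL-4 ratios was a z test on reads + 0.5 against counting error. DESeq2 1.42.0, limma 3.58.1, other scalings, pseudocounts and assumed variation were alternatives. The tests across genes were also run on simulated counts that held counting error only, with changes set in well-read genes. That check does not show how the tests behave where samples vary or where reads are few.

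Named genes were the members, TRIM genes called in a genotype pair and the 3 highest and 3 lowest by mean IL-4 ratio, in each partner list those called in a genotype pair and the 2 highest and 2 lowest (both among genes averaging 1 FPKM or more), and the 3 genes nearest in profile to each member. Genes named outside this rule, Setdb1, Dhrs3 and Trim25, were chosen after their values were seen. Protein sequences and a promoter window of Trim33 were not analysed here.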

Additional observations from a re-analysis of the deposited data

Results flagged for a closer look

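The difference between the IL-4 ratios of Trim33 in knockout and wild-type passed the p threshold of a test against counting error, which compares the 4 libraries and not the conditions. It was 0.44 on the log2 scale, higher in the knockout (adjusted p = 0.0062), below the fold threshold, so Trim33 was not called. With the length curves subtracted the difference was 0.10 (adjusted p = 0.78), and with an assumed coefficient of variation of 0.2 between samples the adjusted p was 1.0.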

How the results depend on the processing

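Of the counts of members called, 51 values under alternatives stayed on the same side and 7 fell to 0. For IL-4 in wild-type, the count of 1 (Trim24) became 0 with the length trend removed by the lowess curve or by the 500 genes nearest in length, with a pseudocount of 1, with a fold above 2, and with an assumed coefficient of variation of 0.2 or 0.4. For knockout against wild-type with IL-4 it became 0 with a coefficient of variation of 0.4. Of single values, 161 kept their direction and their call or lack of one, 7 lost their call and 6 changed sign, all 6 for Trim33 under a length correction: IL-4 in wild-type to 0.14 (lowess) and 0.16 (nearest genes), the untreated genotype ratio from 0.01 to -0.061 (lowess) and -0.064 (nearest genes), and in edgeR with a length offset the genotype effect to -0.014 and the IL-4 effect to 0.19. Uncalled Trim33 values also lost the p threshold they had passed. Knockout against wild-type with IL-4 went from 0.44 (adjusted p = 1.5e-05) to 0.03 (0.95, lowess) and 0.01 (1.0, nearest genes), with an adjusted p of 0.70 at an assumed coefficient of variation of 0.1. The difference of IL-4 ratios went from 0.44 (adjusted p = 0.0062) to 0.10 (0.78). The cause of the length trend was not tested. No paired analysis was possible because each group has 1 library and the labels carry no replicate numbers, and leaving out a replicate was not possible for the same reason. Without the IL-4-stimulated wild-type library, the joint fit has no residual degree of freedom and was not run. At this depth, Trim66 and the remaining Trim24 reads of the knockout are too few for a ratio of useful precision.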
